A study of Mus musculus with 15 samples.

Results

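The genes described here are 10 members of the NF-kB system, taken by name from a deposited expression table of 44827 genes. They are the transcription factor genes Nfkb1, Nfkb2, Rel, Rela and Relb, and the cytokine genes Tnf and Il1b. The others are the inhibitor genes Nfkbia and Tnfaip3, and Nfkbiz, a gene of the IkB family. The list was made by gene name, but with earlier results of these data known. Each of the 10 passed the filter on low values, 1 CPM or more (counts scaled to the library size) in no fewer than 3 libraries, as did 13927 genes in all. RNA was sequenced from mouse bone marrow cells sorted as LSK, which lack lineage markers and carry Sca1 and cKit, a fraction rich in blood stem cells and early progenitors. The mice were C57BL/6 and fell into 5 groups, each with 3 libraries: wild type mice (WT), single mutants labelled Tet2-/- or Nras(G12D), and mice of the genotype Tet2-/- Nras(G12D), either free of leukemia (the double mutant) or with it (the leukemic double mutant). Tet2-/- mice lack a dioxygenase that oxidises methylated cytosine, and Nras(G12D) encodes a constitutively active small GTPase. The mutations were conditional and restricted to blood-forming tissue, by a driver that the sources used here do not name. An age of 6 months is stated for animals whose DNA methylation was studied in the same project. The leukemic libraries alone are described with the letters BMT, whose meaning was not established, and what they mark cannot be told apart from leukemia. Separate animals are not stated for the libraries of a group, so p-values measure the spread between libraries, which may be partly technical. Summed levels of 4 Y-linked genes were 700, 490 and 0.0 CPM in Tet2-/- libraries 1 to 3. Nras(G12D) libraries had 0.0369, 308 and 0.031, double mutant ones 455, 0.332 and 0.0702, and leukemic ones 372, 0.0329 and 0.0312. WT libraries had at most 1.11. Each mutant group thus held more than 1 animal, with sex differing within it but not visibly within WT. Sex and mutation are therefore partly mixed in comparisons with WT.

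NF-kB is a family of dimeric transcription factors held in the cytoplasm by IkB proteins until receptors for TNF, IL-1, Toll-like receptor ligands or lymphotoxin activate IkB kinases. In the canonical arm IkB alpha, made by Nfkbia, is degraded and Rela, Rel and p50 (from Nfkb1) enter the nucleus, while in the alternative arm the p100 product of Nfkb2 is processed to p52, which pairs with Relb. Nfkbia and Tnfaip3 are themselves induced by NF-kB and shut it down again, so their transcript levels are widely read as outputs of the pathway. In blood stem and progenitor cells NF-kB takes part in survival, inflammatory responses and myeloid output.

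The promoters of 4 of the 10 genes are shown because they hold the DNA pattern that NF-kB dimers bind. RefSeq promoter sequences of build GRCm38.p6 were found for 7 of the 10 genes, with none for Nfkb1, Relb and Nfkbiz. The 250 bases before each start were searched on both strands for the NF-kB (kappa B) consensus decamer. Matches stood before Nfkbia, Rel, Tnfaip3 and Nfkb2, and none in the windows of Rela, Tnf and Il1b. The pattern occurred in 3.9% of 32851 promoter entries and in 5.34% of the 9885 tested genes with an entry. Each stretch runs 5′ to 3′ on the strand of its gene, and capitals mark the matches, on either strand.
Nfkbia, chr12:55492649-55492777, minus strand: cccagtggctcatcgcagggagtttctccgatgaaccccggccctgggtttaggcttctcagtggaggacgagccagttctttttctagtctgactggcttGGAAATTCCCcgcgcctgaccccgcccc
Rel, chr11:23770971-23771099, minus strand: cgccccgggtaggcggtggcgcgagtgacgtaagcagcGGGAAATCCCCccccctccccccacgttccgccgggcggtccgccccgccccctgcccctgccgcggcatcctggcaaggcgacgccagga
Tnfaip3, chr10:19015412-19015540, minus strand: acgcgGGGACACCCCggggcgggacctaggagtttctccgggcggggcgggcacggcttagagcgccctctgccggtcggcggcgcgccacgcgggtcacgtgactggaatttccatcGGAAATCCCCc
Nfkb2, chr19:46304692-46304721, plus strand: cgtcacGGGAATTCCCCccctcggggggcc
The match of Nfkbia begins 29 bases before the start, and those of Tnfaip3 begin 125 and 12 bases before the start at 19015410, while another listed Tnfaip3 start, at 19011963, has no match in its window. In Rel a pair of overlapping matches begins 92 and 91 bases before the start. Nfkb2 has an overlapping pair 39 and 38 bases before its first listed start and another match at 11 bases, which lies beyond the stretch shown. Further matches, not shown, begin 236 bases before the listed Nfkb2 start at 46305695 and 225 bases before that at 46305930. A match is a description of the letters and does not show that a factor binds there.

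Total counts ran from 22733189 to 43562909 a library, and 0 counts in a library allow up to 3, which is 0.0775 to 0.127 CPM by counting error alone. The genes Kit and Ly6a, which encode cKit and Sca1, were detected in each of the 15 libraries. The summed level of 6 LSK surface markers was 3110 to 3490 CPM in WT and 2290 to 5170 in the 3 groups of non-leukemic mutants. It was 2670, 818 and 1360 CPM in the leukemic libraries 1 to 3. Leukemic group means were lower for Kit, Cd34 and Flt3 (499, 515 and 280 CPM, against 1240, 1380 and 379 in WT). Those of Ly6a, Cd48 and Slamf1 were higher (123, 185 and 16.5 CPM, against 88.1, 146 and 12.1 in WT). Some libraries stood apart within their group. In the tenth of genes richest in G and C (1363 genes), the median log2 deviation from each gene's mean was -1.0 in Tet2-/- library 1, -1.01 in Tet2-/- library 3, and between -0.164 and 0.598 in the other 13. Summed levels of 8 mature neutrophil markers were 3810 CPM in Nras(G12D) library 2 and 100 to 412 CPM elsewhere. Other marker sums also differed between groups. That of 7 B cell markers, mostly Ighm, was 3750 to 9460 CPM in WT libraries, 600 to 2170 over the 9 libraries of the other non-leukemic groups, and 2010 to 6370 in leukemic ones, while Pax5 was at or under 0.415 CPM throughout. That of 7 T and NK cell markers, mostly Nkg7, was 166 to 209 CPM in WT libraries, 227 to 370 in those 9, and 73.2 to 252 in leukemic ones. Dendritic cell markers (8 genes) summed to 470 to 696 CPM in WT libraries, 1130 to 4210 for Tet2-/-, 580 to 3660 for Nras(G12D), 2400 to 4020 for the double mutant and 484 to 754 with leukemia. Erythroid markers (6 genes) summed to 122 to 196 CPM in WT libraries, 35.8 to 555 in the 9 others without leukemia, and 406, 4140 and 2100 in leukemic libraries 1 to 3. Pax5, Cd3e, Cd3g and Ncr1 had 0 counts in at least 1 library. Tet2 gene totals did not separate the groups, WT having 65.2, 50.7 and 61.0 CPM and Tet2-/- libraries 35.9, 59.8 and 49.3. The deleted part of Tet2 is not given in the labels, so that total checks nothing. In bulk libraries fewer cells of a type and less RNA per cell cannot be told apart.

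Per kilobase of exon, the canonical arm was the more abundant in WT cells. Nfkbia stood at 59.3 CPM per kb (group mean), Rela at 40.5, Nfkb1 at 14.7 and Rel at 7.14. The alternative-arm genes were lower, Nfkb2 at 4.09 CPM per kb and Relb at 0.879. Tnf stood at 3.4 CPM per kb, Nfkbiz at 2.19, Tnfaip3 at 1.65 and Il1b at 0.171. The double mutant means were 7.67 for Nfkb2, 2.63 for Relb, 6.4 for Nfkbiz and 4.24 for Tnfaip3.

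**Figure D1:**
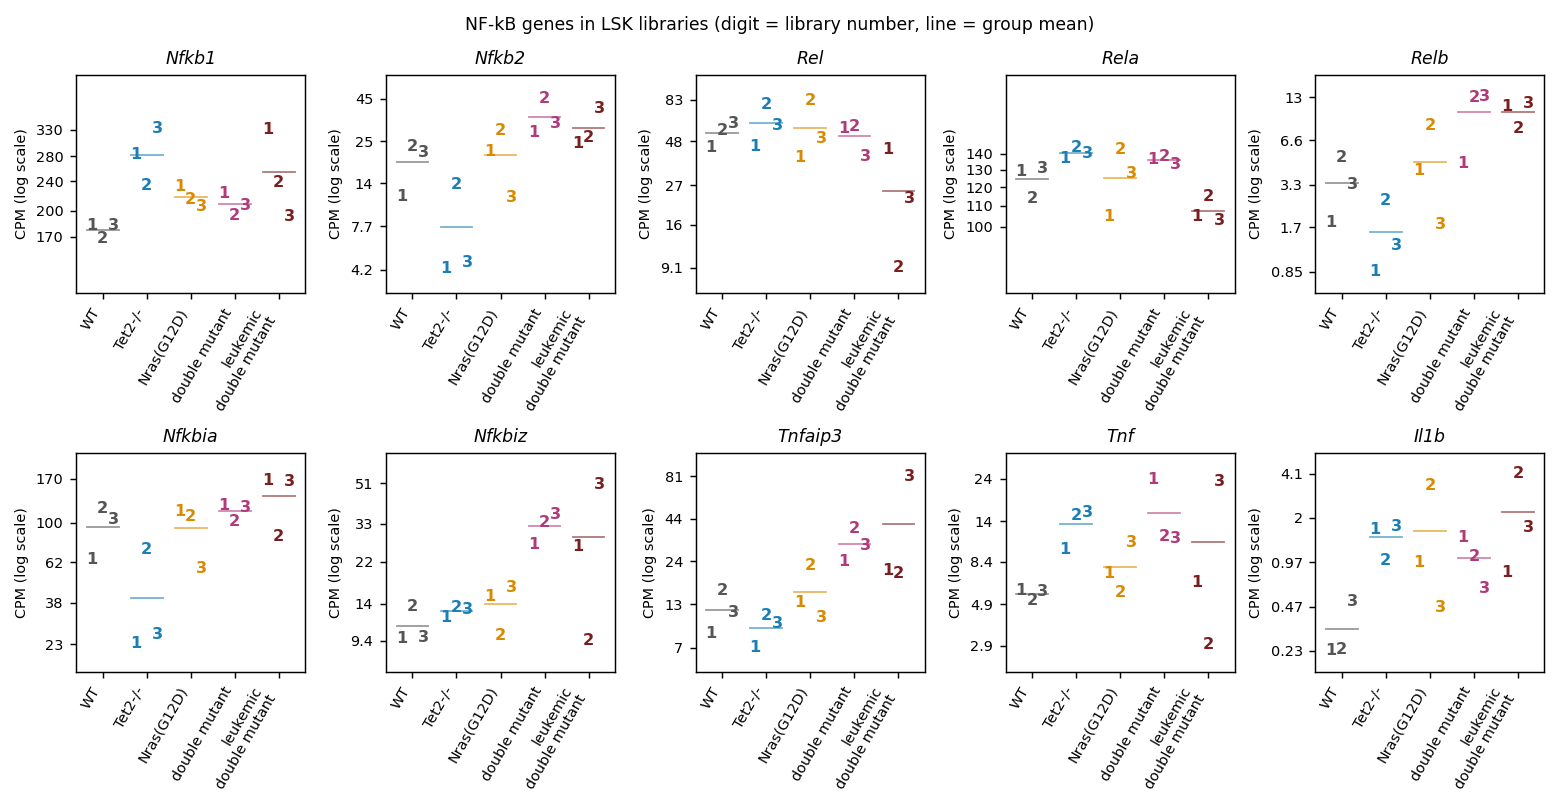
Level of each of the 10 genes in CPM (vertical axis, log scale) in the 5 groups (horizontal axis). Digits are library numbers and lines are group means. Nfkb2 and Nfkbia are lowest in Tet2-/- libraries 1 and 3, Nfkbiz is between 26.5 and 36.5 CPM in the double mutant, and the leukemic libraries are widely spread for Rel, Nfkbiz, Tnfaip3 and Tnf.

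Between the double mutant and Tet2-/-, 5 of the 10 genes were higher in the double mutant past the threshold (limma, adjusted p below 0.05). They were Nfkb2 and Relb of the alternative arm, the inhibitor genes Nfkbia and Tnfaip3, and Nfkbiz. Of all 13927 genes tested, 20.1% were called higher and 8.57% lower in that comparison. The median log2 change was 0.72 over the 10 genes and 0.0 over all genes tested. Rela, Rel, Nfkb1, Tnf and Il1b were not called. Against WT, the leukemic double mutant had 2 of the 10 called higher, Tnfaip3 and Il1b, and 1 called lower, Rel, beside 10.8% and 13.9% of all genes. The comparisons share groups with one another, so their values are given side by side and are not independent.

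Nfkb1 encodes p105, the precursor of p50, and its gene lies 2.04 Mb from Tet2 (GRCm38, chromosome 3, 135584655 to 135691547, minus strand). WT libraries 1 to 3 had 182, 168 and 182 CPM, Tet2-/- libraries 283, 234 and 332, and Nras(G12D) libraries 233, 214 and 205. Levels reached 223, 194 and 207 CPM with both mutations and 331, 238 and 193 with leukemia. Every library of the 4 mutant groups was above the WT libraries. No comparison passed the threshold: the log2 change from WT was 0.66 ± 0.20 (SE) in Tet2-/- (limma, adjusted p = 0.117) and 0.48 ± 0.20 in the leukemic double mutant (limma, adjusted p = 0.0956). In the order of group means, WT and the double mutant were the only neighbours without overlap.

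Rela encodes p65, the main activating subunit of the canonical arm (chromosome 19, 5637483 to 5648130, plus strand). In CPM, WT libraries had 129, 114 and 131, Tet2-/- libraries 137, 144 and 140, and Nras(G12D) libraries 105, 143 and 128. Double mutant libraries had 136, 138 and 133 CPM and leukemic ones 105, 115 and 103. The whole range over 15 libraries was 0.49 on the log2 scale, the narrowest of the 10. Leukemic libraries lay below those of the non-leukemic double mutant without overlap, as did 23.4% of all genes, by 0.33 ± 0.17 on the log2 scale (limma, adjusted p = 0.162). Between the double mutant and Tet2-/- the log2 change was -0.05 ± 0.17 (limma, adjusted p = 0.845). Exons of Rela are 59.4% G and C, which places it at the 95.5th percentile of tested genes. After a correction for G and C content, chosen after seeing the data, the change became -1.22 (limma, adjusted p = 0.00785).

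Rel encodes c-Rel, a canonical subunit best known from lymphocytes (chromosome 11, 23736847 to 23770970, minus strand). WT libraries had 44.4, 55.2 and 60.4 CPM, Tet2-/- libraries 44.9, 78.4 and 59.2, Nras(G12D) libraries 38.8, 82.7 and 49.7, and double mutant libraries 56.7, 58.6 and 39.5. The leukemic libraries had 43.4, 9.12 and 22.7 CPM, each below the lowest WT library, with library 2 far below the others. Rel fell by 1.35 ± 0.45 on the log2 scale in the leukemic double mutant against WT (limma, adjusted p = 0.0426), and the difference from the non-leukemic double mutant was -1.29 ± 0.45 (limma, adjusted p = 0.0509). The call against WT was lost without leukemic library 2 (-0.75), leukemic library 3 (-1.41) or WT library 1, 2 or 3 (-1.47, -1.31 and -1.25). Leukemic libraries 2 and 3 also had the lowest summed LSK surface markers, with Kit, Cd34 and Flt3 each below every WT library. Their stem cell markers were the lowest too (45.1 and 97.1 CPM over 7 genes, against 717 to 864 in WT). Their erythroid sums were the highest (4140 and 2100 CPM). The part of cell makeup in the Rel value was not tested.

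Nfkb2 encodes p100, precursor of p52 (chromosome 19, 46304320 to 46312385, plus strand). WT libraries had 11.6, 23.4 and 21.3 CPM, Tet2-/- 4.25, 13.8 and 4.66, and Nras(G12D) 21.6, 29.1 and 11.5. With both mutations the values were 28.2, 45.1 and 32.2 CPM, and with leukemia 24.3, 26.3 and 39.3. All 6 libraries that carry both mutations were above the WT and Tet2-/- libraries, and Nras(G12D) overlapped every group. Nfkb2 rose by 2.41 ± 0.46 on the log2 scale from Tet2-/- to the double mutant (limma, adjusted p = 0.00472). Against WT the log2 changes were -1.47 ± 0.46 in Tet2-/- (limma, adjusted p = 0.118), 0.94 ± 0.46 in the double mutant (adjusted p = 0.358) and 0.71 ± 0.46 in the leukemic double mutant (adjusted p = 0.271). The change between double mutant and Tet2-/- was 1.22 after the correction for G and C content (limma, adjusted p = 0.0136). Exons of Nfkb2 share 299 bases with Psd and 531 with AC114539.1 on the other strand, and since strand use in counting is not stated, some reads may belong to those genes.

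Relb, the partner of p52 (chromosome 7, 19606217 to 19629438, minus strand), had a similar order of groups at lower levels. Levels of Relb were 1.83, 5.09 and 3.33 CPM for WT, 0.85, 2.6 and 1.28 for Tet2-/-, and 4.13, 8.34 and 1.77 for Nras(G12D). Double mutant libraries reached 4.57, 12.9 and 13.2 CPM, and leukemic ones 11.3, 7.94 and 11.7. The leukemic libraries did not overlap WT, while the lowest double mutant library fell within the WT range. Relb rose by 2.69 ± 0.60 on the log2 scale from Tet2-/- to the double mutant (limma, adjusted p = 0.00727), and by 2.11 after the G and C correction. The calls of Nfkb2 and Relb against Tet2-/- were kept when any 1 library of the groups compared was left out. Against WT the leukemic change was 1.68 ± 0.60 (limma, adjusted p = 0.0528), and that of the double mutant 1.54 ± 0.60 (adjusted p = 0.22).

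Nfkbia encodes IkB alpha, the inhibitor that NF-kB induces to end its own activity (chromosome 12, 55489410 to 55492647, minus strand). Nfkbia stood at 63.9, 118 and 104 CPM for WT, 23.2, 72.1 and 25.9 for Tet2-/-, and 115, 108 and 57.2 for Nras(G12D). Double mutant libraries had 123, 102 and 120 CPM and leukemic ones 166, 84.7 and 165. Tet2-/- libraries 1 and 3 were the lowest of all 15, and Tet2-/- library 2 fell within the WT range. Nfkbia rose by 1.71 ± 0.42 on the log2 scale from Tet2-/- to the double mutant (limma, adjusted p = 0.0116). That call was lost without Tet2-/- library 1 or 3, and the change was 0.67 without both. The difference of Tet2-/- from WT was -1.39 ± 0.42 (limma, adjusted p = 0.115).

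Nfkb2, Relb and Nfkbia were lowest in Tet2-/- libraries 1 and 3, in which G and C rich genes were low as a class. Exons of Nfkb2, Relb and Nfkbia are 59.4%, 56.8% and 52.9% G and C. That places them at the 95.7th, 87.6th and 69.2nd percentile of tested genes. Rela, also at 59.4%, was not low in the same libraries (137 and 140 CPM, against 129, 114 and 131 in WT). After the G and C correction the calls of all 3 between the double mutant and Tet2-/- were kept, with a change of 1.56 for Nfkbia. Without both Tet2-/- libraries 1 and 3, none of the 10 genes was called in that comparison (limma), and 3 of 13927 genes were called in all. Tet2-/- is then a single library, whose spread is taken from the other groups.

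**Figure D2:**
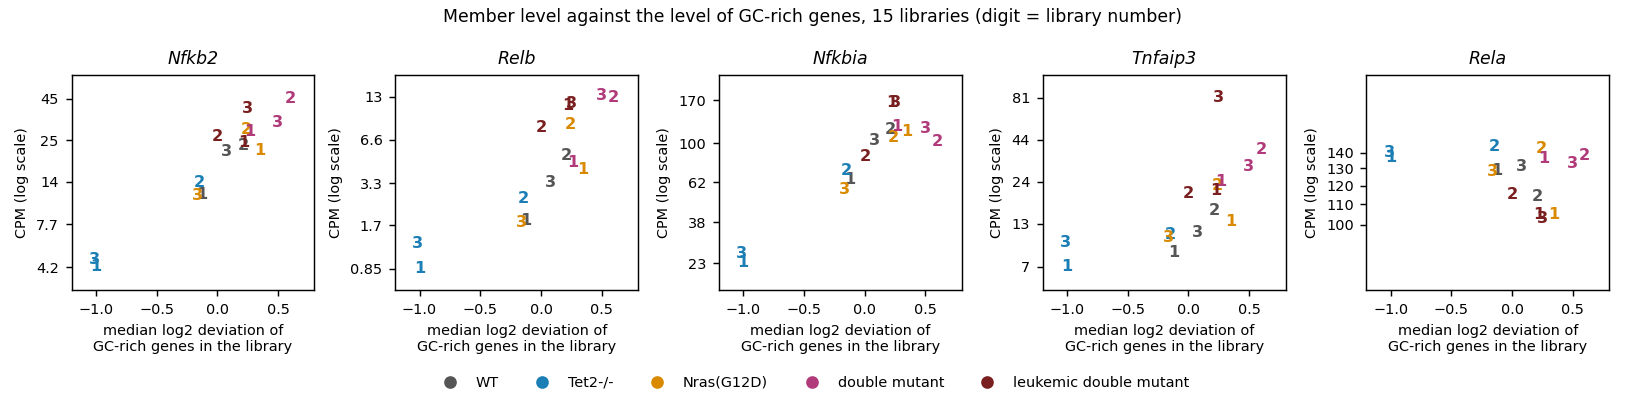
Level in CPM (vertical axis, log scale) against the median log2 deviation of G and C rich genes in the same library (horizontal axis), for the 15 libraries, with digits for library numbers and colours for groups. Tet2-/- libraries 1 and 3 sit alone at the left, near -1.0 on the horizontal axis, with the lowest values of Nfkb2 and Nfkbia.

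Nfkbiz encodes IkB zeta, a nuclear IkB protein that acts as a cofactor on a subset of NF-kB targets such as Il6 (chromosome 16, 55811375 to 55838899, minus strand). WT libraries had 9.6, 13.6 and 9.74 CPM, Tet2-/- 12.1, 13.4 and 13.2, and Nras(G12D) 15.2, 9.95 and 16.6. Double mutant libraries had 26.5, 33.4 and 36.5 CPM, above all 9 libraries of those groups. Leukemic libraries were at 25.9, 9.45 and 50.6 CPM and overlapped every group. Nfkbiz rose by 1.30 ± 0.45 on the log2 scale from Tet2-/- to the double mutant (limma, adjusted p = 0.0425), but the call was lost when any 1 of the 6 libraries was left out. Against WT the double mutant change was 1.55 ± 0.45 (limma, adjusted p = 0.104), and against Nras(G12D) 1.23 ± 0.45 (adjusted p = 0.586).

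Tnfaip3 encodes A20, a ubiquitin-editing enzyme that stops signalling from TNF and Toll-like receptors (chromosome 10, 19000910 to 19015657, minus strand). WT libraries gave 8.57, 15.8 and 11.5 CPM of Tnfaip3, Tet2-/- libraries 6.97, 11.1 and 9.92, and Nras(G12D) libraries 13.4, 22.6 and 10.7. The libraries with both mutations gave 23.9, 38.2 and 29.9 CPM, and those with leukemia 21.1, 20.2 and 80.7. Double mutant libraries lay above all 9 libraries of WT and the single mutants, and leukemic libraries above WT and Tet2-/-. Tnfaip3 rose by 1.72 ± 0.47 on the log2 scale from Tet2-/- to the double mutant (limma, adjusted p = 0.0176) and by 1.49 ± 0.47 from WT to the leukemic double mutant (limma, adjusted p = 0.0343). The leukemic call was lost without leukemic library 3 (0.83), WT library 1 (1.27) or WT library 3 (1.48). The call against Tet2-/- was lost without Tet2-/- library 1 (1.52) or 3 (1.78), or double mutant library 2 (1.54) or 3 (1.72).

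Levels of an immediate early and handling list were, like Nfkbiz and Tnfaip3, higher in the double mutant than in WT and the single mutants. The list holds 18 genes such as Fos, Jun and Egr1, which respond within minutes to stimulation or to cell isolation. Its summed level was 436 to 701 CPM in WT, 677 to 917 in Tet2-/-, 606 to 840 in Nras(G12D) and 3190 to 5520 in the double mutant. Leukemic library 3, which had the highest Nfkbiz and Tnfaip3 of all, was at 2350 CPM, the highest sum of its group, whose lowest was 678. That lowest sum was in leukemic library 1, where Nfkbiz was at 25.9 and Tnfaip3 at 21.1 CPM, both above every WT library. Leukemic library 2, with a sum of 828 CPM, had Nfkbiz at 9.45 CPM, below every WT library, and Tnfaip3 at 20.2 CPM, above every WT library. The part of these genes' response in the Nfkbiz and Tnfaip3 values was not tested.

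Tnf, which encodes the founding ligand of its family and is both a target and an activator of NF-kB (chromosome 17, 35199381 to 35202007, minus strand), passed the threshold in no comparison. WT libraries had 5.87, 5.13 and 5.75 CPM, Tet2-/- libraries 9.81, 15 and 15.7, and Nras(G12D) libraries 7.2, 5.68 and 10.7. With both mutations Tnf stood at 23.8, 11.5 and 11.2 CPM, and with leukemia at 6.49, 2.93 and 23.1. Tet2-/- and double mutant libraries were each above all WT libraries, and the leukemic libraries overlapped every other group. The log2 change from WT was 1.24 ± 0.56 in Tet2-/- (limma, adjusted p = 0.201) and 1.38 ± 0.56 in the double mutant (adjusted p = 0.249). Without leukemic library 3 the leukemic level was lower than that of the double mutant by a called difference (-1.73, limma, adjusted p = 0.0258), against -0.93 ± 0.56 with it (adjusted p = 0.237).

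Il1b encodes interleukin-1 beta, an inflammatory cytokine made mainly by myeloid cells (chromosome 2, 129364570 to 129371139, minus strand). It was rare, with 6 to 131 counts a library. In CPM, WT libraries had 0.229, 0.235 and 0.513, Tet2-/- libraries 1.66, 0.997 and 1.75, and Nras(G12D) libraries 0.96, 3.38 and 0.465. Double mutant libraries had 1.45, 1.06 and 0.632 CPM and leukemic ones 0.824, 4.12 and 1.71. All libraries of Tet2-/-, the double mutant and the leukemic double mutant were above WT, and 2 of the 3 Nras(G12D) libraries were. Il1b rose by 2.50 ± 0.71 on the log2 scale from WT to the leukemic double mutant (limma, adjusted p = 0.0213), a call lost without leukemic library 2 (1.90) or 3 (2.53), or WT library 1 (2.31) or 2 (2.33). The changes from WT that were not called were 2.16 ± 0.71 in Tet2-/- (limma, adjusted p = 0.119), 1.86 ± 0.71 in Nras(G12D) (adjusted p = 0.984) and 1.64 ± 0.71 in the double mutant (adjusted p = 0.277). Summed levels of 8 monocyte and macrophage markers were 523 to 538 CPM in WT libraries, 619 to 1250 for Tet2-/-, 568 to 1210 for Nras(G12D), 612 to 772 for the double mutant and 307 to 502 with leukemia. The sums were thus above WT in the 3 non-leukemic mutant groups and below it in the leukemic one. The fall with leukemia followed Lyz2 (group mean 132 CPM, against 304 in WT), and Adgre1 and Ms4a7 were also lower. Cd14, Csf1r, Ly6c2 and Fcgr1 had higher means with leukemia (3.92, 90.5, 191 and 1.54 CPM, against 1.73, 64.6, 149 and 0.338). Cx3cr1 hardly differed (7.14 against 7.1 CPM). The part of these markers in the Il1b values was not tested. Nras(G12D) library 2, with the highest Il1b of its group, was the library with 3810 CPM of neutrophil markers. Exons of Il1b share 25 bases with Il1bos on the other strand.

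None of the 10 genes was called in Tet2-/- against WT (limma, 0.23% of all genes called), where 5 of the 10 had an unadjusted p under 0.05. None was called in Nras(G12D) against WT (0.0% of all genes), with 1 at an unadjusted p under 0.05, or in the double mutant against WT (0.682%), with 5. The double mutant against Nras(G12D) also gave no call (limma, 0.079% of all genes), with 2 of the 10 at an unadjusted p under 0.05. Between the leukemic and the other double mutant there was no call while 24.3% of all genes were called (9.04% higher and 15.2% lower). Here 1 of the 10 had an unadjusted p under 0.05. Of all 13927 genes, 3304, 577, 2119, 1032 and 5383 had an unadjusted p under 0.05 in these comparisons, in the order given. With limma's voom and sample quality weights the counts called were 6, 0, 6, 0 and 3 of 10 in these 5 comparisons, in the order given, beside 49.8%, 0.0%, 26.3%, 0.158% and 56.7% of all genes.

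Counts of groups that did not overlap can be set beside these. Double mutant levels of 7 of the 10 genes lay above every WT library, namely Nfkb1, Nfkb2, Rela, Nfkbiz, Tnfaip3, Tnf and Il1b, beside 16.6% of all genes. Against Tet2-/- the 5 called genes lay above and Nfkb1 below, beside 26.0% and 27.5% of all genes. Against Nras(G12D) 3 of the 10 lay above, Nfkbiz, Tnfaip3 and Tnf, beside 6.74% of all genes. In Tet2-/- 4 were above every WT library (Nfkb1, Rela, Tnf and Il1b), beside 21.9%. In Nras(G12D) 1 was, Nfkb1, beside 5.52%. In the leukemic double mutant 5 were above every WT library, Nfkb1, Nfkb2, Relb, Tnfaip3 and Il1b, and 1 was below, Rel, beside 24.0% and 23.1% of all genes.

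**Figure D3:**
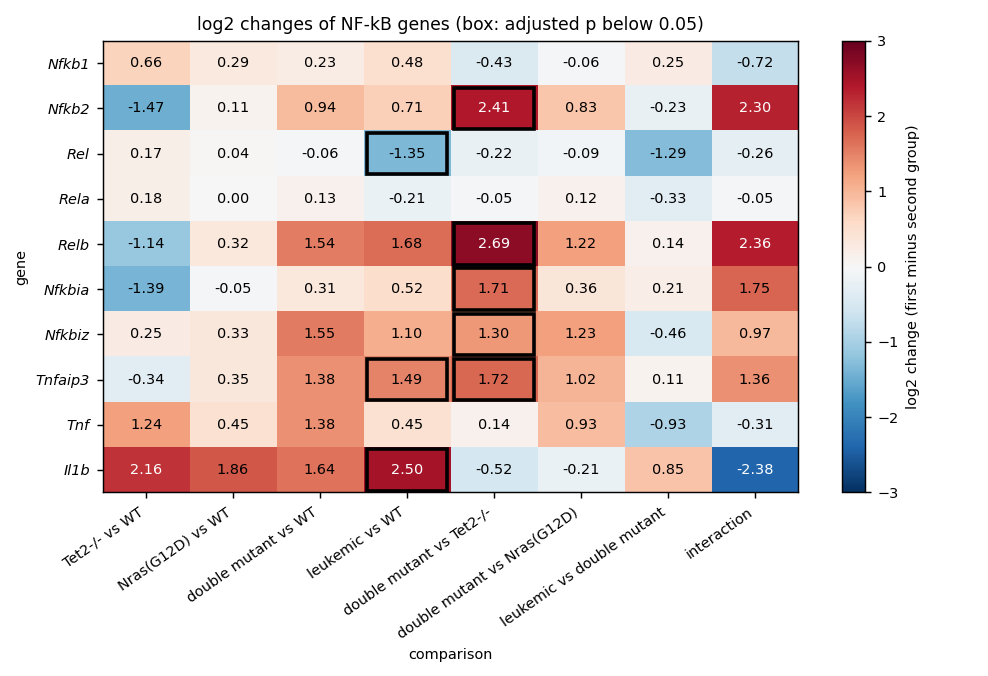
log2 change of each of the 10 genes (rows) in each comparison (columns), as first minus second group, with a box around values past an adjusted p of 0.05. Boxes stand for 5 genes in the double mutant against Tet2-/- and for Rel, Tnfaip3 and Il1b between WT and the leukemic double mutant.

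The interaction asks whether the double mutant differs from the sum of both single mutants' changes. It was not called for any of the 10 genes or for any gene tested (limma, 0.0% called), with 5 of the 10 and 2924 genes in all at an unadjusted p under 0.05. With voom and sample quality weights 5 of the 10 were called, beside 42.5% of all genes. The estimates were 2.30 ± 0.65 on the log2 scale for Nfkb2 (limma, adjusted p = 0.143), 2.36 ± 0.85 for Relb (adjusted p = 0.154) and 1.75 ± 0.60 for Nfkbia (adjusted p = 0.15). After the G and C correction the estimate for Nfkb2 was 1.23 and its change from WT to Tet2-/- was -0.69, neither of them called. For Nfkb1 the interaction was -0.72 ± 0.29 (limma, adjusted p = 0.187) and for Il1b -2.38 ± 1.0 (adjusted p = 0.201).

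Of 71 other genes of the pathway, listed by role, 67 were tested, since Cxcl1, Ccl2, Il1a and Il12b were too low. In the double mutant against Tet2-/-, 20 of the 67 were called higher and 4 lower, with a median log2 change of 0.29 (limma, against 20.1% and 8.57% of all genes). With leukemia 10 were called higher than in WT and 6 lower, 23.9% in all and close to the 24.7% of all genes. For the double mutant against WT 1 was called, Il6, higher, beside 0.488% of all genes. None of the 67 was called by limma in Tet2-/- against WT (19 at an unadjusted p under 0.05) or in Nras(G12D) against WT (0). The same held for the double mutant against Nras(G12D) (10) and for the interaction (17). Beside these, 3304, 577, 1032 and 2924 of all 13927 genes had an unadjusted p under 0.05, in the same order. Leukemic and non-leukemic double mutants differed in 9 of the 67 (13.4%, beside 24.3% of all genes), with Myd88, Sod2, Tab1 and Tab3 higher and Ebi3, Ier3, Map3k14, N4bp1 and Traf5 lower in leukemia.

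Adaptors and ubiquitin ligases, which carry the signal from receptors to kinases, had 8 of 15 called higher in the double mutant than in Tet2-/- and none lower. They were Irak1, Rbck1, Ripk1, Rnf31, Sharpin, Tradd, Traf3 and Traf5, beside 20.1% of all genes called higher and 8.57% lower. Rbck1, Rnf31 and Sharpin encode the subunits of the linear ubiquitin ligase complex. Each of these genes was lowest in Tet2-/- libraries 1 and 3. Tet2-/- library 2 had 248 CPM of Rbck1, within the double mutant range of 246 to 298. The same library had 46.1 CPM of Rnf31 and 39.4 of Sharpin, below the double mutant ranges of 54.4 to 64.8 and 74.1 to 80.9. Tradd, the adaptor of TNF receptor 1, had 3.02, 14.6 and 2.3 CPM in Tet2-/- libraries and 37.2, 60.8 and 86.6 in double mutant ones, without overlap (log2 3.63 ± 0.63, limma, adjusted p = 0.00472). Irak1, a kinase of the IL-1 receptor complex, rose by 2.03 ± 0.40 (limma, adjusted p = 0.00477), and Sharpin rose by 2.0 ± 0.40 (adjusted p = 0.00524). The change of Sharpin was 0.96 and that of Tradd 1.99 without both Tet2-/- libraries 1 and 3, neither of them called.

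Myd88, the adaptor of IL-1 and Toll-like receptors, separated the leukemic libraries from the rest. They had 136, 137 and 134 CPM of it, double mutant libraries 74.8, 68.3 and 71.2, and WT libraries 74.6, 70.7 and 79.8. Nras(G12D) libraries had 67.6, 79.0 and 77.1 CPM and Tet2-/- libraries 63.1, 88.3 and 62.6. The 3 leukemic values differed little, and each was above all 12 other libraries. Of all genes tested, 24.0% had every leukemic library above WT, and the share above all 12 was not counted. Myd88 rose by 0.85 ± 0.18 on the log2 scale against WT (limma, adjusted p = 0.00695) and by 0.92 ± 0.18 against the double mutant (limma, adjusted p = 0.00517), and leaving out any 1 library of the groups compared lost neither call.

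Among kinases, Chuk and Map3k7 were called higher and Ikbkg and Tbk1 lower in the double mutant than in Tet2-/-, of 10 tested. The shares over all genes were 20.1% higher and 8.57% lower. Chuk encodes IKK alpha, the kinase of the alternative arm. WT libraries had 23.6, 39.5 and 27 CPM, Tet2-/- libraries 13.8, 20.2 and 20, and Nras(G12D) libraries 44.4, 42.7 and 27.7. Levels of Chuk were 46.5, 92.3 and 106 CPM with both mutations and 78.1, 176 and 144 with leukemia. Both groups with both mutations were above every WT and Tet2-/- library. The log2 changes were 2.12 ± 0.37 against Tet2-/- in the double mutant (limma, adjusted p = 0.00472) and 2.10 ± 0.37 against WT in the leukemic double mutant (limma, adjusted p = 0.0029).

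Map3k14 encodes NIK, which activates Chuk in the alternative arm. Its leukemic levels were 17.3, 3.59 and 11 CPM, against 27.4, 30.7 and 28.3 in WT and 39.4, 32.4 and 21.9 in the double mutant, without overlap. It fell by 1.71 ± 0.49 on the log2 scale against WT (limma, adjusted p = 0.0231), a call lost without leukemic library 2 (-1.06) or WT library 1, 2 or 3 (-1.74, -1.66 and -1.72). Tab3, which links TAK1 to ubiquitin chains, rose by 2.12 ± 0.36 from WT to the leukemic double mutant (limma, adjusted p = 0.00263). Between the double mutant and Tet2-/- it was not called, but passed the threshold with the replicate number as a block (0.94, limma, adjusted p = 0.0268). Ikbke, an IKK-related kinase, fell by 0.97 ± 0.24 from WT to the leukemic double mutant (limma, adjusted p = 0.0133). That call was lost without leukemic library 2 (-0.76) or WT library 3 (-0.89).

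Among 8 receptors, 1 was called higher and 1 lower in the double mutant than in Tet2-/-, beside 20.1% and 8.57% of all genes. The receptor called higher was Ltbr, the lymphotoxin beta receptor (log2 2.21 ± 0.50, limma, adjusted p = 0.00786), and that call was lost after the G and C correction (0.79, adjusted p = 0.0903). Il1rap, a chain of the IL-1 receptor, fell by 1.39 ± 0.36 (limma, adjusted p = 0.0139), a call lost without Tet2-/- library 1 (-1.31) or 3 (-1.31) or double mutant library 3 (-1.23). In the leukemic double mutant Tnfrsf1a, TNF receptor 1, fell by 1.18 ± 0.40 against WT (limma, adjusted p = 0.0423). The Tnfrsf1a call was lost without WT library 1, 2 or 3 (-1.26, -1.18 and -1.11) or leukemic library 2 or 3 (-0.73 and -1.2). Tnfrsf11a, the receptor RANK, was at or under 2.11 CPM in every library and was not called on the deposited scale. It was called against WT in leukemia after quantile normalization (2.53) and with voom (2.13), and with voom in the double mutant against WT (2.19) and Tet2-/- (2.25).

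Other inhibitors and IkB family genes had 5 of 13 called higher (Bcl3, Nfkbib, Nfkbid, Otulin and Tnip2) and 1 lower (Tnip1) in the double mutant than in Tet2-/-. Of all genes, 20.1% were called higher and 8.57% lower there. Tnip2 and Tnip1 both encode partners of A20, and they went opposite ways. Tnip2 rose by 2.15 ± 0.43 on the log2 scale (limma, adjusted p = 0.00503), while Tnip1 fell by 1.03 ± 0.23 (limma, adjusted p = 0.00746), from 113, 86.1 and 104 CPM to 64.4, 52.5 and 34.9. In the leukemic double mutant Tank was called higher than WT (0.69 ± 0.23, limma, adjusted p = 0.0393) and Nfkbie lower. The Tank call was lost without WT library 1, 2 or 3 (0.68, 0.70 and 0.69) or leukemic library 2 or 3 (0.54 and 0.69). Zc3h12a, which encodes the RNase regnase-1, differed by -0.96 ± 0.38 between the double mutant and Tet2-/- (limma, adjusted p = 0.0732) and by -1.04 ± 0.38 between the leukemic double mutant and WT (adjusted p = 0.0606). The former passed the threshold with the G and C correction (-1.6), quantile normalization (-1.5), voom (-1.08) or without double mutant library 1 (-1.23). The latter passed it in a fit of the compared groups (-1.04), with total counts (-1.31) or voom (-0.78), and voom also called Tet2-/- against WT (0.83).

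Of 21 target genes tested, Csf1, Gadd45b, Plk3 and Tnfaip2 were called higher in the double mutant than in Tet2-/-, and none lower, 19.0% beside the 20.1% of all genes called higher. The call of Tnfaip2 there (2.35 ± 0.68, limma, adjusted p = 0.0216) was lost after the G and C correction (1.67) and without Tet2-/- library 1 (2.44) or 2 (2.03) or double mutant library 2 (1.95) or 3 (2.21). Il6, a cytokine whose induction in macrophages needs IkB zeta, had 0.305, 0.469 and 0.146 CPM in WT libraries and 2.63, 2.62 and 3.44 in double mutant ones, which did not overlap. Tet2-/- libraries had 1.4, 0.876 and 1.47 CPM, Nras(G12D) libraries 0.738, 0.413 and 0.434, and leukemic ones 0.824, 1.15 and 2.24. Il6 rose by 3.28 ± 0.50 on the log2 scale from WT to the double mutant (limma, adjusted p = 0.0112) and by 2.14 ± 0.50 to the leukemic double mutant (limma, adjusted p = 0.00962). The double mutant call was lost without WT library 1 (3.35) or 3 (2.86) or double mutant library 2 (3.35) or 3 (3.15). Dendritic cell markers were also higher in the double mutant (2400 to 4020 CPM) than in WT (470 to 696), and their part in the Il6 value was not tested. Its low counts put the WT values of Il6 near the limit that a count of 0 allows.

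Plk3, a stress-induced kinase, rose by 3.05 ± 0.62 on the log2 scale between Tet2-/- and the double mutant (limma, adjusted p = 0.00531), from at most 0.425 CPM to 1.35, 3.26 and 3.44. In the leukemic double mutant Tnfaip2 reached 21, 144 and 155 CPM against 8.57, 11 and 7.1 in WT (log2 3.15 ± 0.68, limma, adjusted p = 0.00707). The erythroid marker sums of the same libraries were 406, 4140 and 2100 CPM, against at most 196 in WT, and their part in the leukemic values of Tnfaip2, Chuk, Tab3 and Map3k14 was not tested. Ebi3, a subunit of the cytokines IL-27 and IL-35, fell to 7.21, 2.24 and 3.21 CPM from 14.8, 15.6 and 16.4 (log2 -2.06 ± 0.42, limma, adjusted p = 0.00574). Against WT 4 of 21 targets were called higher with leukemia (Cxcl2, Il6, Plk3 and Tnfaip2) and 2 lower (Ebi3 and Icam1), 28.6% in all beside 24.7% of all genes.

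**Figure D4:**
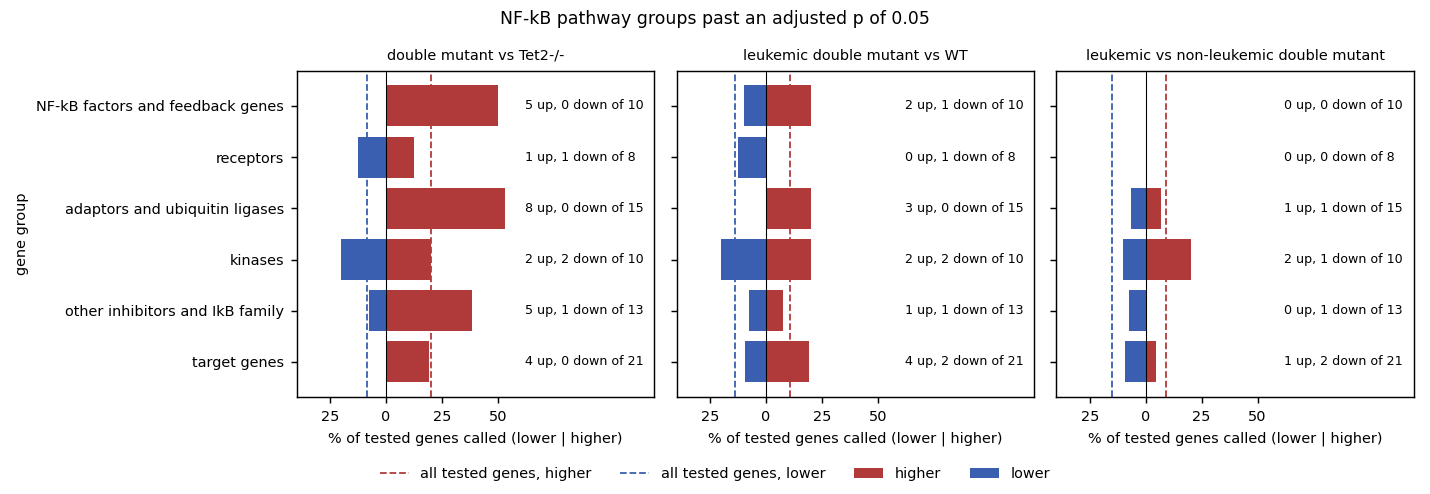
Share of tested genes called higher (right, red) or lower (left, blue) in each group of NF-kB genes (rows) in the comparisons named above the panels, with dashed lines at the shares over all genes tested. In the double mutant against Tet2-/-, 5 of the 10 factors and feedback genes and 8 of 15 adaptors and ubiquitin ligases were called higher, beside 20.1% of all genes.

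Genes with the most similar pattern were sought for the 3 members of widest range over the 15 libraries, by the root mean square difference of log2 values after centring each gene. Relb, whose own root mean square about its mean was 1.24, had Trpc4ap (0.198), Itfg1 (0.203) and Rnpep (0.204) nearest. Tnfaip3 (own value 0.899) had Susd6 (0.406) and Edem1 (0.415) nearest. Il1b (own value 1.15) had Olfr56 (0.732), Gpr141 (0.769) and Kcne3 (0.779), farther from it than the neighbours of Relb were from Relb. These are descriptions over 15 libraries that share the depth and G and C differences given above.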

How the data were processed

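RNA from sorted LSK cells of 15 libraries was measured as 1 value per gene. The deposited values are log2 CPM, with 0.5 added to each count and 1 to the library size. Under that formula 100% give whole counts within 1e-06. The library sizes it implies were 0.8127 to 1.1176 times the total counts, so the deposited values include a scaling factor per library. The submitters' processing notes list STAR 2.4.0f1, bcl2fastq, limma 3.28.21 and edgeR 3.14.0, and the builds mm10 and NCBIM37 without a role. Which tool counted reads, and whether by strand, is not given in the sources used here. Columns were matched to samples by description, taking N2-3 as Nras(G12D) library 2 and the BMT columns as leukemic.

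The 13927 genes that reached 1 CPM in 3 or more libraries were fitted with limma 3.58.1 in R 4.3.3 (intensity trend, 5 group means, all libraries), two-sided, with Benjamini-Hochberg adjustment within each comparison over all genes and a threshold of 0.05. The fit was tested on simulated data. Values are CPM and log2 change ± SE, n = 3. The added 0.5 understates changes of low genes. Members and lists were chosen with earlier results of these data known. The named pathway genes are up to 4 per role with the smallest F-test p over the 5 groups. Genes named only in a count were added after their values were seen. A gene that the likeness rule names is not reported here. Coordinates and exon lengths are from GRCm38. G and C content was known for 97.7% of tested genes.

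Replicate numbers come from the titles. Deviations of same-numbered libraries correlated above 0.1 in all 3 pairs in 1 comparison, the double mutant with Tet2-/- (0.137, 0.106 and 0.122). The replicate block was still fitted to all 15 libraries, and so took the numbers as pairing in every comparison. Correlations were 0.242, 0.237 and -0.124 for WT with Tet2-/-, and 0.037, 0.04 and -0.039 for WT with leukemic libraries. The block is thus a check on the data and not a stated design. No 2 libraries of a group were identical. Alternatives were other scalings, filters, added counts, voom weights, a replicate block, a Y-linked covariate and leaving out each library. The G and C correction and leaving out 2 Tet2-/- libraries were added after seeing the data.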

Additional observations from a re-analysis of the deposited data

How the results depend on the processing

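Over 27 settings the 10 genes gave 1450 alternative values, of which 1362 kept their side of the threshold, 51 newly passed it and 37 no longer did. No called value reversed, while 66 of the 1258 values uncalled in both fits changed sign. In Tet2-/- against WT, 6 of the 10 were called with voom and sample quality weights, 1 with the replicate block (Nfkb2, -1.47, limma, adjusted p = 0.0487) and 0 to 3 when a library was left out. In the double mutant against WT, 2 were called in a fit of the compared groups only and 6 with voom. In the leukemic double mutant against WT, 5 were called after quantile normalization and 9 with voom, with 2 in the compared groups only, 2 with no filter and 0 to 3 when a library was left out (0 without WT 1 or leukemic 3). Under the block Relb was called there (adjusted p = 0.0311) and Rel was not (limma, adjusted p = 0.0533).

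In the double mutant against Tet2-/-, the count was 2 to 4 when a library was left out, 2 without Tet2-/- 1 or 3, and 0 without both. The replicate block left the same 5 genes called there, and changed no other call of the 10 genes than those given. Between leukemic and non-leukemic double mutants the count was 2 by total counts, 1 after quantile normalization, 3 with voom, 1 with the Y-linked covariate and 0 to 1 when a library was left out. For the interaction it was 5 with voom and 0 to 2 when a library was left out.

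Over all genes, Tet2-/- against WT gave 32 calls, and 6938 with voom, 713 with the block and 144 after quantile normalization. For the double mutant against WT the counts were 95, 3660 with voom and 213 after quantile normalization, and for the leukemic double mutant against WT 3443 and 8426 with voom. For the double mutant against Tet2-/- the split was 2806 higher and 1193 lower, but 2327 and 2746 after quantile normalization, which shifted the median of all genes by -0.243, and 2300 and 1663 after the G and C correction. The cause was not tested. Low counts limit genes such as Il1b, Il6, Cxcl2 and Tnfrsf11a.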
